A study of Mus musculus with 32 samples.

Results

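The genes described here are 10 of the 32544 in a table of RNA counts from mouse kidney cortex. They were chosen by symbol, as Nfe2l2, which encodes the transcription factor NRF2, and 9 genes known as its antioxidant and reductase targets: Gclc, Gclm, Slc7a11, Txnrd1, Srxn1, Nqo1, Cbr1, Ephx1 and Hmox1. NRF2 is made all the time, and KEAP1 holds it in the cytoplasm and hands it to a CUL3 ubiquitin ligase for destruction. When oxidants or electrophiles modify the cysteines of KEAP1, NRF2 escapes, enters the nucleus, pairs with a small MAF protein and binds antioxidant response elements near its targets, some of which BACH1 otherwise represses. The pathway is known in the kidney for the defence of tubule cells against oxidants, quinones and reactive metabolites.

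The study asked how nicotinamide riboside (NR), a precursor of NAD+, acts in mice with Alport disease. In these mice the glomerular basement membrane lacks the collagen IV chain that Col4a3 encodes, and the kidney scars. All 32 mice were 25 weeks old and of the C57BL/6J strain with the Col4a3tm1Dec allele. Alport mice were Col4a3-/- and controls were Col4a3+/-, so each control also carried a copy of the targeted allele and no wild-type mouse was sequenced. Treated mice ate a diet with 0.5% NR by weight from the age of 10 weeks, and the others received vehicle. The 8 groups of 4 mice were male controls on vehicle, male controls on NR, male Alport mice on vehicle, male Alport mice on NR, and the same 4 groups of females.

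Each mouse gave 1 library of poly(A) RNA, and mice are named by their number, 1 to 4, within a group. The labels do not pair mice between groups by number, and mice were compared as unpaired. The study spread treatment groups over litters, and the labels give no litter. Totals were 16621944 to 27778797 counts per library, with a median of 22071395. Levels are given as CPM, counts brought to a common library size, after TMM scaling over the 32 libraries, and differences as log2 fold changes with their standard error from edgeR, 4 mice against 4. Counts of genes whose groups do not overlap rest on TMM scaling over the 8 libraries compared, which can differ from the CPM printed where 2 mice are close. A gene is said to rise or fall when its p, adjusted over every gene tested in that comparison, was below 0.05. These are libraries of whole tissue, in which fewer cells of a type cannot be told apart from less RNA per cell.

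The labels were checked against marker genes. Ddx3y, a gene of the Y chromosome, lay between 48.1 and 86.2 CPM in the males and between 0.359 and 1.41 CPM in the females. Each of 10 proximal tubule markers was detected, led by Slc34a1. Col4a3 itself lay between 49.0 and 83.7 CPM in the Alport mice and between 59.0 and 200.1 CPM in the controls. Male controls had 150.5 to 200.1 CPM of Col4a3 on vehicle, and 59.0, 93.7, 74.9 and 160.3 CPM on NR. Female controls had 139.7 to 162.8 CPM on vehicle and 104.8 to 123.4 CPM on NR. Mice 1 and 3 of the male controls on NR, at 59.0 and 74.9 CPM of Col4a3, fell within the Alport range and are called low in Col4a3 below. The log2 ratio of Col4a3 to Col4a4 was −0.90 to −0.28 in controls, these mice included, and −1.77 to −1.28 in Alport mice. Several results in male controls on NR are also given without these mice, an alternative chosen after seeing the data that leaves 2 NR mice.

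Some libraries stood apart in the genes described here. Mouse 3 of the male Alport mice on NR was the highest of its group for 9 of the 10 genes, while it was highest for 28.5% of the 11450 genes with a mean of at least 5 CPM. Mouse 4 of the female Alport mice on NR was highest for 8 of the 10, beside 34.8% of all genes. Among the controls on NR, male mouse 1 was highest for 7 of the 10, beside 26.1% of all genes, and female mouse 2 was lowest for 8 of the 10, beside 25.2%.

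In male controls, where NR was given without Alport disease, Txnrd1, Nqo1 and Cbr1 rose with NR. That is 3 of the 10 genes, beside 2.97% of the 14696 genes tested that rose and 1.48% that fell. For 6 of the 10 the NR mice all lay above the vehicle mice, and 13.4% of all genes had groups that did not overlap in either direction. The median log2 fold change of the 10 was 0.60, beside −0.00022 for all genes tested. The count of 3 came to 1 without any 1 of vehicle mice 1, 2 and 3 or NR mice 1 and 3, when 0.744% to 2.99% of all genes passed. It came to 5 without NR mouse 2 and to 6 without NR mouse 4, when 5.51% and 12.6% of all genes passed. Without NR mice 1 and 3 together it was 1, beside 0.836% of all genes, and the median of the 10 was 0.30.

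In female controls, Cbr1 and Ephx1 rose with NR. These are 2 of the 10 genes, beside 4% of the 14951 genes tested that rose and 2.39% that fell. Groups did not overlap for the same 2 genes and for 14.4% of all genes. The median of the 10 was 0.29 on the log2 scale, beside −0.01 for all genes. The count of 2 was 0 or 1 without any 1 of the 4 vehicle mice or of NR mice 1, 3 and 4, when 2.78% to 5.67% of all genes passed, and 3 without NR mouse 2, beside 5.23%.

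In female Alport mice, Nqo1, Cbr1 and Ephx1 rose with NR. These are 3 of the 10 genes, beside 0.382% of the 15712 genes tested that rose and 0.0764% that fell. Groups did not overlap for 6 of the 10, each with NR above vehicle, and for 9.03% of all genes. The median of the 10 was 1.01, or 0.60 without NR mouse 4, beside 0.00049 and −0.02 for all genes. Without NR mouse 4 the count was 6, beside 0.713% of all genes, and without NR mouse 1 it was 4, beside 1.02%. Without any 1 of vehicle mice 1, 3 and 4 or NR mouse 3 it was 0, beside 0.0572% to 0.15%, and without vehicle mouse 2 it was 2, beside 0.549%.

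In male Alport mice, edgeR called 0 of the 10 genes with NR, as it called 0% of the 15500 genes tested. At an unadjusted p under 0.05 stood 4 of the 10 and 777 of all genes. DESeq2 called 68 genes, of which Cbr1 was the 1 among the 10, and limma-voom called 0. The 10 log2 fold changes were all above 0, with a median of 1.12 beside 0.01 for all genes. Without NR mouse 3 that median was 0.19 beside 0.0017, and Slc7a11 was below 0. Groups did not overlap for 2 of the 10, Nqo1 and Cbr1, with NR above vehicle, and for 3.14% of all genes. Without NR mouse 1, edgeR called 374 of 15662 genes, of which Cbr1 was the 1 among the 10. Without NR mouse 3 it called Cbr1 alone among 15700 genes.

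The effect of the disease was read from the vehicle groups of each sex. Between male Alport and control mice on vehicle, Ephx1 and Hmox1 rose and Gclm fell, 2 and 1 of the 10, beside 26.8% and 24% of the 15286 genes tested. Groups did not overlap for Ephx1, 1 of the 10, and for 47.4% of all genes; in CPM scaled over the 32 libraries they did not overlap for Nfe2l2 either. Between female Alport and control mice, Gclm, Txnrd1, Nqo1 and Cbr1 fell. These are 4 of the 10, beside 21.8% of the 15709 genes tested that fell and 23.9% that rose. Groups did not overlap for Gclm, Txnrd1 and Cbr1, with Alport below control, and for 43.1% of all genes. Scaled over the 32 libraries, those of Nqo1 were also apart, by a narrow gap. The count in males was 2 without any 1 of control mice 1 and 3 or Alport mouse 3, when 44.7% to 47.3% of all genes passed.

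The sexes differed before disease or treatment in 2 of the 10 genes. Cbr1 and Ephx1 were higher in female than in male controls on vehicle, when 15.7% of the 14990 genes tested were higher in females and 15.8% were lower. Groups did not overlap for the same 2 genes, and for 31.7% of all genes. The count was 3 without male mouse 1, beside 4101 of 15216 genes, with Gclm lower in females by a log2 difference of −0.53 (adjusted p = 0.0240). It was also 3 without female mouse 3, beside 4043 of 15113 genes, with Hmox1 lower in females by a log2 difference of −0.62 (adjusted p = 0.0408).

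**Figure D1:**
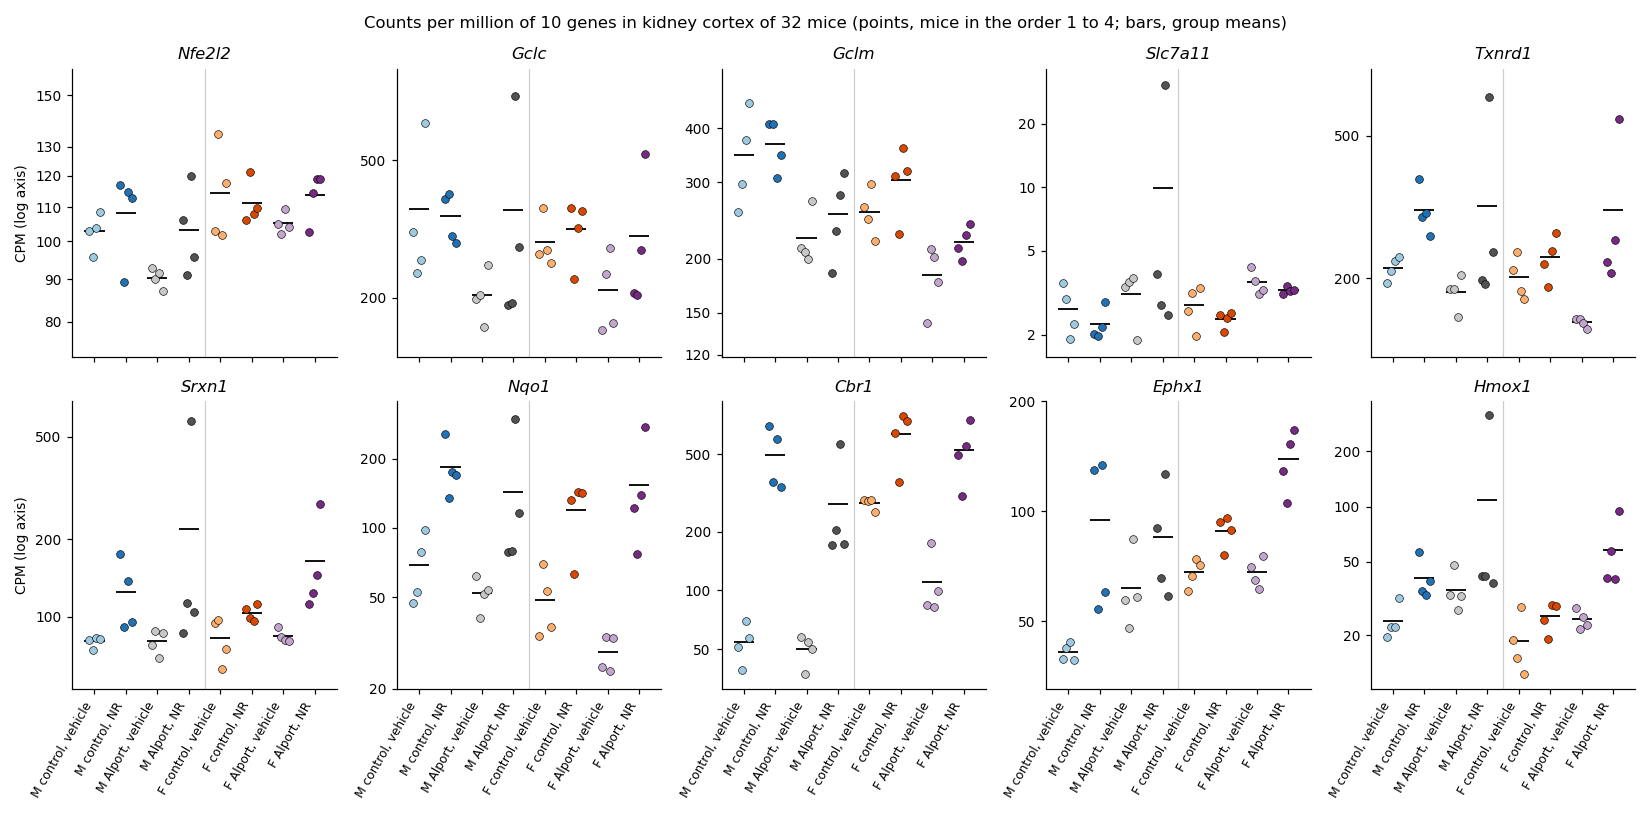
CPM (log axis) of the 10 genes in each of 32 mice, by group; points are mice in the order 1 to 4 and bars are group means. Cbr1 lies between 340.5 and 695 CPM in the 4 male controls on NR and between 39.0 and 69.6 CPM in the 4 on vehicle, and mouse 3 of the male Alport mice on NR is the top point of its group in 9 of the 10 panels.

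Nfe2l2 encodes the factor itself, and its RNA varied least of the 10. Over the 32 mice it lay between 87.1 and 135 CPM, a 1.54-fold range. Male controls had 103, 95.7, 104 and 109 CPM on vehicle and 117, 89.3, 115 and 113 on NR, and these groups overlapped. Female controls had 103, 135, 102 and 118 CPM on vehicle and 106, 121, 108 and 109.8 on NR, again with overlap. With NR, its log2 difference was 0.09 ± 0.10 in male controls, −0.04 ± 0.09 in female controls, 0.18 ± 0.11 in male Alport mice and 0.12 ± 0.08 in female Alport mice. Between Alport and control mice on vehicle it was −0.10 ± 0.07 in males and −0.08 ± 0.09 in females. No comparison called it with edgeR, DESeq2 or limma-voom, and its unadjusted p in edgeR was above 0.05 in all 12.

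Cbr1 encodes carbonyl reductase 1, a cytosolic enzyme that uses NADPH to reduce quinones, aldehydes and ketones. In male controls, Cbr1 stood at 51.1, 39.0, 69.6 and 56.9 CPM on vehicle and at 695, 359.6, 599.7 and 340.5 CPM on NR. The 4 NR mice lay far above the 4 vehicle mice, at 6.29 to 12.8 times the vehicle mean, and the mice with low Col4a3, 1 and 3, were the highest. Cbr1 rose by 3.22 ± 0.30 on the log2 scale (adjusted p = 0.00203), the largest difference among the 10 genes in any of the 4 NR comparisons. It passed whichever of the 8 mice was left out, at 3.01 to 3.37. Without NR mice 1 and 3 it rose by 2.69 (adjusted p = 0.00379). Over the alternatives, which otherwise kept both mice, the adjusted p was 1.05e-35 to 0.00558.

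In female controls, Cbr1 was already high on vehicle, at 293, 289, 291 and 254 CPM, and stood at 643, 359.8, 786 and 744 CPM on NR. The groups did not overlap, and NR mouse 2 was nearest to the vehicle mice. Cbr1 rose by 1.17 ± 0.24 (adjusted p = 0.0356), or 1.28 to 2.79 times the vehicle mean. The call was lost without any 1 of the 4 vehicle mice or NR mice 1, 3 and 4, with log2 differences of 1.04 to 1.19 and adjusted p of 0.0722 to 0.0969.

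In Alport mice, females had 84.5, 176, 82.0 and 99.4 CPM of Cbr1 on vehicle and 493, 307, 552 and 746 CPM on NR. Each NR mouse lay above each vehicle mouse, with vehicle mouse 2 the highest of its group. Cbr1 rose by 2.26 ± 0.33 (adjusted p = 0.0239). It no longer passed without any 1 of vehicle mice 1, 3 and 4 or NR mouse 3, with log2 differences of 2.13 to 2.23 and adjusted p of 0.0880 to 0.115. Males had 57.9, 37.4, 54.6 and 49.9 CPM on vehicle and 171, 205, 563 and 172 CPM on NR. Here too each NR mouse lay above each vehicle mouse, and mouse 3 stood at 3.08 times the mean of the other 3. The log2 difference of 2.47 ± 0.41 did not pass (adjusted p = 0.336). It passed without NR mouse 3, at 1.86 (adjusted p = 0.0496), and without NR mouse 1, at 2.64 (adjusted p = 0.0280).

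Cbr1 also differed by disease and by sex. Between Alport and control females on vehicle it fell by 1.31 ± 0.23 (adjusted p = 0.00180), with all 4 Alport mice below all 4 controls. In males the same difference was −0.04 ± 0.18 (adjusted p = 0.889), with overlapping groups. Female controls on vehicle stood above male controls by 2.40 ± 0.15 (adjusted p = 3.97e-06), with no overlap. In order of the group means ± SD (n = 4), Cbr1 was highest in female controls on NR (633 ± 192 CPM), female Alport mice on NR (524 ± 181) and male controls on NR (499 ± 176). Next came female controls on vehicle (282 ± 18.7), male Alport mice on NR (278 ± 191) and female Alport mice on vehicle (110.5 ± 44.4). Male controls and male Alport mice on vehicle were lowest, at 54.2 ± 12.7 and 49.9 ± 8.96 CPM. Neighbours among the first 3 groups, the fourth and the fifth, and the last 2 differed by less than their SD.

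Nqo1 encodes NAD(P)H quinone dehydrogenase 1, which reduces quinones in a step of 2 electrons and so avoids reactive semiquinones. In male controls, Nqo1 stood at 47.1, 52.4, 78.6 and 97.9 CPM on vehicle and at 255, 135, 174 and 169 CPM on NR. There was no overlap between the groups, with NR mouse 1 highest. Nqo1 rose by 1.42 ± 0.28 (adjusted p = 0.0330). That rise did not pass without any 1 of vehicle mice 1, 2 and 3 or NR mice 1 and 3, with log2 differences of 1.21 to 1.49 and adjusted p of 0.0593 to 0.0928. With NR mice 1 and 3 both left out it was 1.13 (adjusted p = 0.230). Over the alternatives, which otherwise kept both mice, the adjusted p was 1.13e-06 to 0.230.

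Female controls had 33.8, 69.5, 53.1 and 37.2 CPM of Nqo1 on vehicle and 132, 63.3, 143 and 141 CPM on NR. NR mouse 2 lay below vehicle mouse 2, and the other 3 NR mice lay above all vehicle mice. The log2 difference was 1.31 ± 0.36 and did not pass (adjusted p = 0.0915), but without NR mouse 2 it was 1.52 and passed (adjusted p = 0.0366). Female Alport mice had 24.9, 33.6, 23.9 and 33.3 CPM on vehicle and 122, 76.6, 139 and 275 CPM on NR. The lowest NR mouse was more than double the highest vehicle mouse, and NR mouse 4 stood at 9.53 times the vehicle mean. Nqo1 rose by 2.42 ± 0.37 (adjusted p = 0.0326), and by 1.97 without NR mouse 4 (adjusted p = 0.0101). This did not hold past the threshold without any 1 of the 4 vehicle mice or NR mouse 3, with log2 differences of 2.34 to 2.51 and adjusted p of 0.0614 to 0.167.

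Male Alport mice had 61.7, 40.5, 51.8 and 53.5 CPM of Nqo1 on vehicle and 78.8, 79.7, 298 and 116 CPM on NR. The groups did not overlap, and NR mouse 3 was far above the rest. The log2 difference was 1.46 ± 0.42 (adjusted p = 0.836), or 0.81 without NR mouse 3 (adjusted p = 0.823). With disease, Nqo1 fell by 0.71 ± 0.24 in females on vehicle (adjusted p = 0.0372), although the top Alport mouse and the lowest control were nearly level, at 33.6 and 33.8 CPM. That call was lost without any 1 of control mice 2 and 3 or Alport mice 1, 2 and 3, with log2 differences of −0.80 to −0.49 and adjusted p of 0.0516 to 0.112. In males the difference was −0.33 ± 0.24 (adjusted p = 0.293).

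By group mean ± SD (n = 4), Nqo1 was highest in male controls on NR (184 ± 50.9 CPM), then in female Alport mice on NR (153 ± 85.6), male Alport mice on NR (143 ± 105) and female controls on NR (120.1 ± 38.2). On vehicle it was 69.0 ± 23.7 CPM in male controls, 51.9 ± 8.72 in male Alport mice, 48.4 ± 16.4 in female controls and 28.9 ± 5.23 in female Alport mice. The 4 NR groups thus stood above the 4 vehicle groups, and no neighbours within the NR groups differed beyond their SD.

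Ephx1 encodes microsomal epoxide hydrolase, which opens reactive epoxides to diols. Male controls had 39.3, 42.1, 44.0 and 39.1 CPM of Ephx1 on vehicle and 130.0, 54.0, 134 and 59.9 CPM on NR. The NR mice all lay above the vehicle mice but split in pairs, with mice 1 and 3, those with low Col4a3, at more than double mice 2 and 4. The log2 difference was 1.22 ± 0.33 and did not pass (adjusted p = 0.0822). It passed without NR mouse 2 or NR mouse 4, at 1.39 to 1.41 (adjusted p 0.0331 to 0.0341), and was 0.46 without mice 1 and 3 (adjusted p = 0.0538). Over the alternatives, which otherwise kept mice 1 and 3, the adjusted p was 0.000327 to 0.15.

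Female controls had 60.5, 66.5, 73.9 and 71.1 CPM of Ephx1 on vehicle and 93.3, 75.7, 95.7 and 88.7 CPM on NR. There was no overlap between the groups, and NR mouse 2 was the lowest of its group. Ephx1 rose by 0.37 ± 0.09 (adjusted p = 0.0219). The call was lost without any 1 of vehicle mouse 2 or NR mice 1, 3 and 4, with log2 differences of 0.33 to 0.37 and adjusted p of 0.0544 to 0.0702. Female Alport mice had 70.5, 65.0, 61.4 and 75.3 CPM on vehicle and 129, 105, 153 and 167 CPM on NR, with a clear gap between the groups. Ephx1 rose by 1.04 ± 0.15 (adjusted p = 0.0171), with no single mouse far from the other 3. It no longer passed without any 1 of vehicle mice 1, 3 and 4 or NR mouse 3, with log2 differences of 0.98 to 1.09 and adjusted p of 0.0556 to 0.0792.

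Male Alport mice had 57.1, 47.8, 83.7 and 58.3 CPM of Ephx1 on vehicle and 90.1, 65.8, 126 and 58.7 CPM on NR. These groups overlapped, with vehicle mouse 3 above 2 of the NR mice. The log2 difference was 0.45 ± 0.26 (adjusted p = 0.943), or 0.20 without NR mouse 3. With disease, Ephx1 rose by 0.67 ± 0.15 in males on vehicle (adjusted p = 0.00266), each Alport mouse above each control, and differed by 0.04 ± 0.09 in females (adjusted p = 0.751). Female controls on vehicle stood above male controls by 0.75 ± 0.08 (adjusted p = 1.28e-05). Its group means ± SD (n = 4) ran from 139 ± 27.4 CPM in female Alport mice on NR and 94.5 ± 43.4 in male controls on NR to 41.1 ± 2.34 in male controls on vehicle. Male controls on NR, female controls on NR (88.4 ± 8.93) and male Alport mice on NR (85.2 ± 30.5) differed by less than the larger of their SDs, as did female Alport mice (68.1 ± 6.14), female controls (68.0 ± 5.86) and male Alport mice (61.7 ± 15.4) on vehicle.

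Txnrd1 encodes cytosolic thioredoxin reductase 1, a selenoprotein that returns thioredoxin to its reduced form with electrons from NADPH. Male controls had 193, 209, 223 and 228 CPM of Txnrd1 on vehicle and 379, 295, 305 and 262 CPM on NR. All 4 NR mice lay above all 4 vehicle mice. Txnrd1 rose by 0.55 ± 0.12 (adjusted p = 0.0310). That rise did not pass without any 1 of the 4 vehicle mice or NR mice 1 and 3, with log2 differences of 0.44 to 0.59 and adjusted p of 0.0561 to 0.110. With NR mice 1 and 3 both left out it was 0.38 (adjusted p = 0.125). Over the alternatives, which otherwise kept both mice, the adjusted p was 0.00105 to 0.276. In female controls, groups overlapped and the difference was 0.18 ± 0.11 (adjusted p = 0.393).

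Female Alport mice had 153, 154, 150.0 and 145 CPM of Txnrd1 on vehicle and 221, 206, 255 and 556 CPM on NR. The vehicle mice lay close together, each NR mouse lay above them, and NR mouse 4 stood far above the other 3. The log2 difference of 1.06 ± 0.30 did not pass (adjusted p = 0.166), but without NR mouse 4 it was 0.60 and passed (adjusted p = 0.0293). Male Alport mice had 187, 186, 156 and 204 CPM on vehicle and 197, 192, 641 and 237 CPM on NR. NR mouse 3 stood at 3.07 times the mean of the other 3, whose values overlapped those on vehicle. The difference was 0.78 ± 0.38 with NR mouse 3 (adjusted p = 0.943) and 0.18 without it (adjusted p = 0.994). With disease, Txnrd1 fell by 0.38 ± 0.09 in females on vehicle (adjusted p = 0.00519), each Alport mouse below each control, and the difference in males was −0.14 ± 0.10 (adjusted p = 0.238).

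Srxn1 encodes sulfiredoxin, which repairs peroxiredoxins whose cysteine has been overoxidised. Male controls had 81.6, 74.4, 83 and 82.1 CPM of Srxn1 on vehicle and 175, 91.1, 138 and 95.8 CPM on NR. NR mice 1 and 3 were well above vehicle, and mice 2 and 4 were just above it. The log2 difference was 0.65 ± 0.20 and did not pass (adjusted p = 0.0945). It passed without NR mouse 2 or NR mouse 4, at 0.77 to 0.78 (adjusted p 0.0337 to 0.0453), and was 0.21 without NR mice 1 and 3 (adjusted p = 0.316). Over the alternatives, which otherwise kept mice 1 and 3, the adjusted p was 0.0154 to 0.358. In female controls the log2 difference was 0.33 ± 0.12 (adjusted p = 0.139), with overlap.

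Female Alport mice had 91.7, 83.5, 81.2 and 80.5 CPM of Srxn1 on vehicle and 113, 124, 146 and 274 CPM on NR. The groups did not overlap, and NR mouse 4 was at 2.15 times the mean of the other 3. The log2 difference of 0.98 ± 0.26 did not pass (adjusted p = 0.15), and without NR mouse 4 it passed at 0.60 (adjusted p = 0.0345). Male Alport mice had 78.1, 88.4, 69.5 and 86.9 CPM on vehicle and 86.5, 114, 575 and 104 CPM on NR. NR mouse 3 stood at 7.12 times the vehicle mean, and NR mouse 1 lay within the vehicle range. The difference was 1.44 ± 0.58 with NR mouse 3 (adjusted p = 0.943) and 0.32 without it (adjusted p = 0.994). With disease, Srxn1 differed by 0.09 ± 0.08 in males and 0.07 ± 0.12 in females on vehicle.

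Gclc and Gclm encode the catalytic and the modifier subunit of glutamate cysteine ligase, the enzyme of the first step of glutathione synthesis. Male controls had 256, 297, 376 and 458 CPM of Gclm on vehicle, and male Alport mice had 212, 207, 199.8 and 272 CPM. Control mouse 1 lay below Alport mouse 4, and the other Alport mice lay below all controls. Gclm fell by 0.56 ± 0.17 (adjusted p = 0.0175), a call lost without Alport mouse 3, at −0.51 (adjusted p = 0.0676). Female controls had 263, 247, 297 and 219 CPM on vehicle, and female Alport mice had 142, 211, 202 and 176 CPM. Each Alport female lay below each control female, and Gclm fell by 0.45 ± 0.13 (adjusted p = 0.0173). With NR, Gclm differed by 0.10 ± 0.17 in male and 0.24 ± 0.14 in female controls, and by 0.18 ± 0.19 in male and 0.27 ± 0.14 in female Alport mice. None of these 4 differences passed in edgeR, DESeq2 or limma-voom.

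Male controls had 311, 236, 257 and 642 CPM of Gclc on vehicle, and male Alport mice had 198, 203, 164 and 249 CPM. Control mouse 4 was far above the other 3, and control mouse 2 lay below Alport mouse 4. The difference was −0.75 ± 0.33 and did not pass (adjusted p = 0.0962), but without control mouse 2 it was −0.91 and passed (adjusted p = 0.0449). Females differed by −0.42 ± 0.18 (adjusted p = 0.0881), and by −0.58 without Alport mouse 3 (adjusted p = 0.0188). On NR, male Alport mice had 190.0, 193, 769.6 and 281 CPM, in which mouse 3 stood at 3.48 times the mean of the other 3. The NR difference there was 0.81 ± 0.44, or 0.11 without mouse 3. Female Alport mice on NR had 206, 203, 275 and 522 CPM, with mouse 4 highest, and differed from vehicle by 0.53 ± 0.33, or 0.12 without mouse 4. In controls the NR difference was −0.06 ± 0.32 in males and 0.12 ± 0.17 in females.

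Slc7a11 encodes xCT, the light chain of the exchanger that brings in cystine for glutathione synthesis. It was the scarcest of the 10, at 33 to 821 counts per library. Male Alport mice had 3.37, 3.54, 3.71 and 1.88 CPM of Slc7a11 on vehicle and 3.88, 2.78, 30.4 and 2.49 CPM on NR. NR mouse 3 stood at 9.97 times the mean of the other 3, whose values overlapped those on vehicle. The log2 difference was 1.66 ± 0.80 with NR mouse 3 and −0.05 without it. In the other 3 NR comparisons it was −0.22 ± 0.25 in male controls, −0.22 ± 0.22 in female controls and −0.11 ± 0.17 in female Alport mice. Besides that mouse, the 31 libraries lay between 1.88 and 4.20 CPM.

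Hmox1 encodes haem oxygenase 1, which breaks haem down to biliverdin, iron and carbon monoxide, and is also made by macrophages. Male controls had 19.6, 22.2, 22.2 and 31.9 CPM of Hmox1 on vehicle, and male Alport mice had 33.0, 48.3, 27.4 and 32.7 CPM. The groups overlapped through control mouse 4. Hmox1 rose by 0.64 ± 0.19 (adjusted p = 0.0196), a call lost without any 1 of control mice 1, 2 and 3, at 0.55 to 0.60 (adjusted p 0.0524 to 0.0560). In females on vehicle the difference was 0.42 ± 0.23 (adjusted p = 0.169), and without control mouse 3 it passed at 0.71 (adjusted p = 0.00283).

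With NR, male controls had 56.5, 35.0, 33.3 and 39.3 CPM of Hmox1, all above the vehicle mice. The log2 difference of 0.78 ± 0.20 did not pass (adjusted p = 0.0561), but did without vehicle mouse 4 or NR mouse 4, at 0.82 to 0.95 (adjusted p 0.0463 to 0.0489). Without NR mice 1 and 3 it was 0.62 (adjusted p = 0.161). Female Alport mice had 28.1, 21.7, 25.0 and 22.8 CPM on vehicle and 41.2, 57.3, 40.5 and 94.1 CPM on NR. There was no overlap between the groups. Hmox1 differed by 1.27 ± 0.26 (adjusted p = 0.0930), and passed without NR mouse 4, at 0.93 (adjusted p = 0.0183), and without NR mouse 1, at 1.41 (adjusted p = 0.0471). Male Alport mice on NR had 41.9, 42.1, 313 and 38.6 CPM. NR mouse 3 was at 8.87 times the vehicle mean, and the other 3 lay within the vehicle range. The difference was 1.62 ± 0.69 with NR mouse 3 (adjusted p = 0.943) and 0.20 without it. In female controls it was 0.44 ± 0.28 (adjusted p = 0.407).

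**Figure D2:**
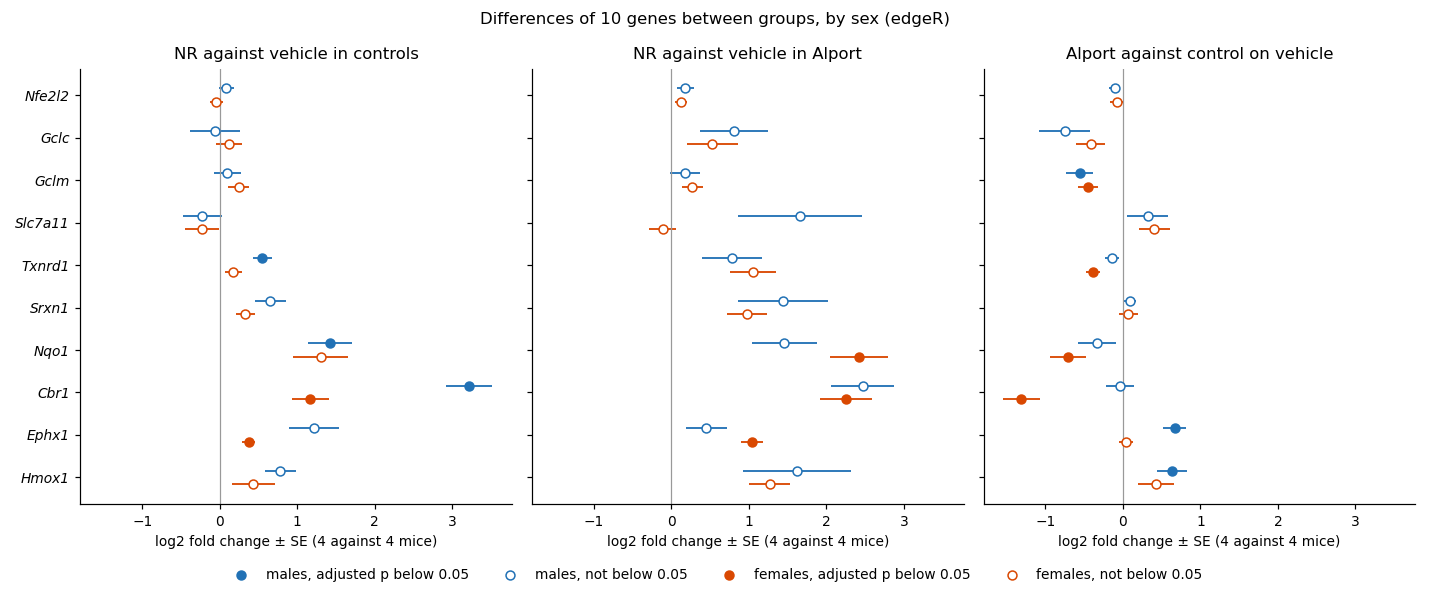
Log2 fold changes of the 10 genes (points, with bars for the standard error, 4 mice against 4), for NR against vehicle in controls and in Alport mice and for Alport against control on vehicle; filled points have an adjusted p below 0.05. Cbr1 with NR in male controls, at 3.22 ± 0.30, is the point farthest to the right, and Cbr1 between Alport and control females, at −1.31 ± 0.23, the one farthest to the left.

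Levels can be compared between genes only per length, so CPM were divided by the kilobases of exon of each gene. These lengths join the exons of all annotated transcripts of a gene and can exceed those of the transcripts present. The order of the genes depends on that choice. As means over the 32 mice, Cbr1 was the highest at 119 CPM per kb, followed by Gclc at 79.2 and Nqo1 at 64.2. Gclm, Srxn1, Ephx1 and Txnrd1 lay close together at 42.8, 41.7, 41.4 and 33.8 CPM per kb. Nfe2l2 and Hmox1 stood at 28.0 and 24.0, and Slc7a11 at 0.268. By group, Cbr1 was the highest in the 4 NR groups and in female controls on vehicle, while in male controls on vehicle it stood at 21.2 CPM per kb, below Gclc at 96.0, Gclm at 55.1, Nqo1 at 44.4, Txnrd1 at 30.1, Srxn1 at 28.5 and Nfe2l2 at 27.1.

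Whether the response to NR differs between groups was tested by interaction terms, of which Cbr1 gave 1 that passed. Its response in female controls was smaller than in male controls by a log2 difference of −2.04 ± 0.39 (adjusted p = 0.0386). That is 1 of the 10 genes, beside 0.624% of the 15379 genes tested. This did not hold past the threshold without any 1 of 12 of the 16 mice, at −2.16 to −1.84 (adjusted p 0.0546 to 0.0939); it was kept without male vehicle mouse 3, male NR mouse 2 or 4, or female NR mouse 2. Without the male controls with low Col4a3, NR mice 1 and 3, it was −1.52 and did not pass (adjusted p = 0.164). Over the alternatives, which otherwise kept both mice, the adjusted p was 8.37e-05 to 0.164. For Ephx1 the same interaction was −0.83 ± 0.35 (adjusted p = 0.274).

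Between genotypes, the response of the 10 genes to NR did not differ past the threshold. In females edgeR called 0 of the 10 and 0% of 16064 genes, while 3 of the 10 and 1484 genes had an unadjusted p under 0.05. DESeq2 called 0 of the 10 and 29 genes, and limma-voom called 0. The largest of these terms, Alport minus control, were 1.09 ± 0.53 for Nqo1 (adjusted p = 0.559) and 1.07 ± 0.42 for Cbr1 (adjusted p = 0.489), and 0.66 and 0.87 without Alport NR mouse 4. The smallest p in edgeR was that of Ephx1, at 0.64 ± 0.17 (unadjusted p = 0.00179, adjusted p = 0.395), or 0.56 without that mouse. Without female Alport NR mouse 1, edgeR called 33 of 16266 genes and 0 of the 10. In males edgeR called 0 of the 10 and 0% of 15800 genes, with 0 of the 10 and 1395 genes at an unadjusted p under 0.05. DESeq2 called 0 of the 10 and 19 genes, and limma-voom called 0. Without Alport NR mouse 1, edgeR called 784 of 15942 genes and still 0 of the 10. For Cbr1 the term in males was −0.77 ± 0.51 (adjusted p = 0.688), or −1.38 without Alport NR mouse 3.

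The effect of disease differed between the sexes for none of the 10 genes by edgeR, which asked here for a change of at least 2-fold as well, and 0.254% of 16152 genes passed. At an unadjusted p under 0.05 stood 2 of the 10 and 1910 genes. DESeq2 called 1 of the 10, Cbr1, among 115 genes, and limma-voom 0 of the 10 among 28 genes. For Cbr1, female minus male, the term was −1.30 ± 0.33 (adjusted p = 0.116), and without Alport female 2 it passed at −1.64 (adjusted p = 0.00585). For Ephx1 it was −0.66 ± 0.18 (adjusted p = 0.127). In Alport mice, the response to NR differed between the sexes for 0 of the 10 and 0% of 16189 genes by edgeR, with 0 of the 10 and 361 genes at an unadjusted p under 0.05. DESeq2 called 1 gene and 0 of the 10, and limma-voom 0. The term for Slc7a11 was −1.80 ± 0.88, and −0.07 without male NR mouse 3.

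The Alport mice on NR that stood apart did so in several of the targets, but not in all of them. Mouse 3 of the male Alport mice on NR stood at 11.3 times the vehicle mean for Cbr1, 9.73 for Slc7a11, 8.87 for Hmox1, 7.12 for Srxn1 and 5.74 for Nqo1. For Gclc and Txnrd1 it stood at 3.78 and 3.5 times. For Ephx1 and Nfe2l2 it stood at only 2.04 and 1.33 times. For Gclm it stood at 1.26 times, and mouse 4 of that group was highest instead. Mouse 4 of the female Alport mice on NR stood at 9.53 times the vehicle mean for Nqo1, 6.75 for Cbr1, 3.85 for Hmox1, 3.69 for Txnrd1 and 3.25 for Srxn1. For Gclm that female stood at 1.32 times the vehicle mean, and for Slc7a11 below it, at 0.923 times. Among 46 other pathway genes with a mean of at least 5 CPM, the male was highest of its group for 28 and the female for 27. Of all 11450 genes at that mean, they were highest for 28.5% and 34.8%, and the female was lowest for 36.6%.

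**Figure D3:**
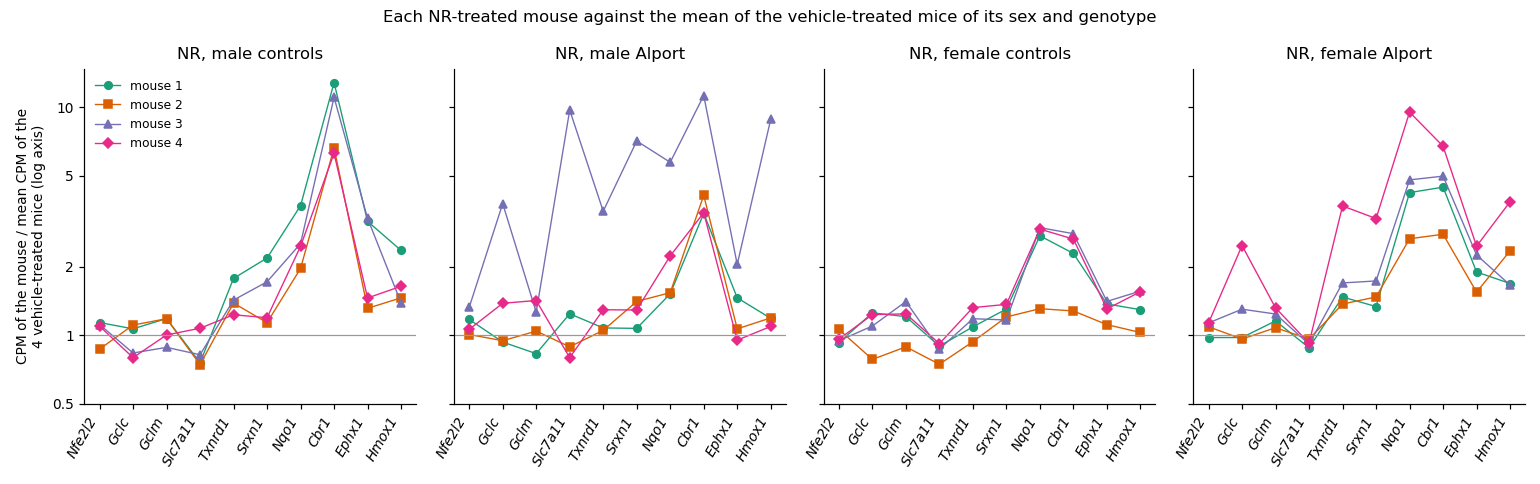
CPM of the 10 genes in each mouse on NR over the mean of the vehicle mice of the same sex and genotype (log axis); each of the 4 panels is a group of 4 mice. Mouse 3 of the male Alport mice is at 11.3 for Cbr1 and 9.73 for Slc7a11, while for Slc7a11 the other 3 mice of that group lie between 0.797 and 1.24.

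The rest of the pathway was described by a list of 50 other genes. With NR, 16 of the 47 tested rose in male controls, 20 of 47 in female controls and 10 of 48 in female Alport mice, beside 2.97%, 4% and 0.382% of all genes. Their medians were 0.42, 0.34 and 0.61 on the log2 scale, beside −0.00022, −0.01 and 0.00049 for all genes tested. In male Alport mice edgeR called 0 of 47, with 16 at an unadjusted p under 0.05, beside 777 of 15500 genes. DESeq2 called 6, beside 68 of 18306 genes, limma-voom called 0, and the median was 0.32 beside 0.01. In male controls, 8 of 47 rose without NR mice 1 and 3, beside 0.566% of all genes. The median of the 47 was then 0.22, beside −0.0034 for all genes. Without NR mouse 4, 15 of 48 rose in female Alport mice, beside 0.581%. Female controls without NR mouse 2 had 25 of 48 that rose and 1 that fell, beside 3.3% and 1.93%. With disease, 12 of 47 rose and 18 fell in males, beside 26.8% and 24% of all genes, and 6 of 47 rose and 21 fell in females, beside 23.9% and 21.8%.

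Of 8 regulators of NRF2, 1 passed in an NR comparison by edgeR, that in female controls, beside 4% of all genes that rose there and 2.39% that fell. Sqstm1, which encodes p62, a protein that takes KEAP1 into autophagy, rose in female controls from 452, 423, 412 and 430.4 CPM on vehicle to 497, 505, 506 and 508 CPM on NR, by 0.23 ± 0.06 (adjusted p = 0.0367). The groups did not overlap, and without NR mouse 2 the difference was 0.23 and did not pass (adjusted p = 0.0541). In female Alport mice, 5 of the 8 regulators stood at an unadjusted p under 0.05 in edgeR, all higher with NR, beside 2590 of 15712 genes. There, Sqstm1 had 439, 437, 443 and 423 CPM on vehicle and 512, 588, 586 and 671 CPM on NR. Keap1 had 61.6, 62.8, 68.4 and 63.2 CPM in male controls on vehicle and 65.5, 71.5, 64.1 and 63.1 on NR. These overlapped, and the difference was 0.06 ± 0.08 there and 0.18 ± 0.08 in female Alport mice. Bach1, the repressor, differed by 0.22 ± 0.09 in male controls (adjusted p = 0.16) and −0.22 ± 0.07 in female controls (adjusted p = 0.0704).

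With disease, 2 of the 8 regulators rose and 2 fell in males, beside 26.8% and 24% of all genes, and 1 rose and 3 fell in females, beside 23.9% and 21.8%. Cul3 fell by 0.57 ± 0.07 in males and 0.38 ± 0.06 in females. The small MAF genes moved in both directions. Maff rose by 1.59 ± 0.16 in males and 1.62 ± 0.24 in females, Mafg fell by 0.33 ± 0.09 and 0.28 ± 0.08, and Mafk fell by 0.20 ± 0.07 in females. Nfe2l1, which encodes the related factor NRF1, rose by 0.25 ± 0.08 in males. Keap1 differed by −0.17 ± 0.07 in males (adjusted p = 0.0510) and Bach1 by −0.19 ± 0.08 in females (adjusted p = 0.0601).

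Of 6 genes that supply NADPH, 2 rose with NR in male controls, 5 in female controls and 1 in female Alport mice, where 2.97%, 4% and 0.382% of all genes tested rose. These counts were 2 without male NR mice 1 and 3, 6 without female control NR mouse 2 and 2 without female Alport NR mouse 4, beside 0.566%, 3.3% and 0.581% of all genes. Pgd, of the pentose phosphate pathway, had 106, 109, 112 and 132 CPM in male controls on vehicle and 317, 192, 265 and 163 on NR. It rose by 1.05 ± 0.20 in male and 0.82 ± 0.15 in female controls, with a difference of 1.44 ± 0.28 in female Alport mice that did not pass (adjusted p = 0.0783). In male controls without NR mice 1 and 3, Pgd rose by 0.62. Tkt, which encodes transketolase, rose by 0.76 ± 0.10, 0.27 ± 0.07 and 0.66 ± 0.10 in the same order. Idh1 and G6pdx rose in female controls, by 0.39 ± 0.09 and 0.32 ± 0.07.

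Of the other glutathione and thioredoxin genes, 7 of 14 rose with NR in male controls, 8 of 14 in female controls and 6 of 15 in female Alport mice (all genes: 2.97%, 4% and 0.382%). With the same mice left out as for the NADPH genes, 2 of 14, 12 of 15 and 7 of 15 rose (all genes: 0.566%, 3.3% and 0.581%). Gsta1, a glutathione transferase of the alpha class, was near 0 on vehicle in male controls, at 0.477, 0.942, 0.738 and 0.285 CPM, and stood at 78.4, 5.79, 47.8 and 16.9 CPM on NR. It rose by 5.91 ± 1.03 in male controls, 3.88 ± 0.78 in female controls and 4.61 ± 0.40 in female Alport mice. Gsta2 rose by 1.52 ± 0.21, 0.69 ± 0.10 and 1.08 ± 0.14 in these groups, and Gstm1 by 1.31 ± 0.19, 1.29 ± 0.26 and 1.5 ± 0.18. Gsta3 rose by 1.3 ± 0.17 in male controls and 1.81 ± 0.24 in female Alport mice, and did not pass in female controls at 0.79 ± 0.19 (adjusted p = 0.0521). Gsta1 also rose without NR mice 1 and 3 of the male controls, by 4.18, while Gsta2, Gstm1 and Gsta3 no longer passed, at 1.33, 1.42 and 1.09 (adjusted p of 0.123, 0.0834 and 0.0594).

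Of the other detoxification genes, 6 of 13 rose with NR in male controls, 5 of 13 in female controls and 3 of 13 in female Alport mice (all genes: 2.97%, 4% and 0.382%). Leaving out those mice again gave 4, 5 and 6 of 13 (all genes: 0.566%, 3.3% and 0.581%). Cbr3, the carbonyl reductase encoded beside Cbr1, had 7.53, 7.44, 5.26 and 5.97 CPM in female Alport mice on vehicle and 58.1, 44.0, 94.8 and 224 on NR. It rose by 4.02 ± 0.54 there and by 5.0 ± 0.71 in male controls, and did not pass in female controls at 3.09 ± 0.67 (adjusted p = 0.0511). Aldh1a1, an aldehyde dehydrogenase, rose by 2.65 ± 0.12 in male controls, 1.43 ± 0.26 in female controls and 1.82 ± 0.22 in female Alport mice. Abcc4, an efflux pump, rose by 2.12 ± 0.33, 0.86 ± 0.15 and 1.49 ± 0.21. Abcc3, another such pump, rose by 3.41 ± 0.33 in male controls, and its response was smaller in female controls by a log2 difference of −2.79 ± 0.50 (adjusted p = 0.0331). Of 6 haem and iron genes, Blvrb, a biliverdin reductase, rose in male controls by 0.73 ± 0.13, and Fth1, the ferritin heavy chain, in female controls by 0.38 ± 0.09. Cbr3, Aldh1a1 and Abcc3 rose without NR mice 1 and 3 of the male controls as well, by 3.74, 2.53 and 3.07. Abcc4, Blvrb and the sex difference of Abcc3 did not pass without them, at 1.73, 0.55 and −2.47 (adjusted p of 0.168, 0.127 and 0.163).

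Genes with a pattern most like a member were ranked by Pearson r of log2 CPM over the 8 group means, among 11441 genes with a mean of at least 5 CPM. The points share their libraries, and r is a description. Closest to Cbr1 were Abcc4 (0.994), Gsta2 (0.993), Pmvk (0.988), Slc3a2 (0.973) and Cyp4a10 (0.972). Closest to Nqo1 were Gstp1 (0.985), Slc25a22 (0.984), 0610007P14Rik (0.982), Thyn1 (0.978) and Lpcat3 (0.975). For Gclc they were Dnajc21 (0.987), Gbe1 (0.979), Emc8 (0.979), Ist1 (0.978) and Tmem230 (0.977).

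Promoters were searched for the core of the antioxidant response element, TGACNNNGC, on both strands. RefSeq promoters of build GRCm38.p6, 250 bases before to 50 bases after a start, were found for 8 of the 10 genes, and not for Hmox1 and Gclc. The letters occur in 12.4% of the 32851 promoters of that length, and in any promoter of 14% of 27025 gene symbols. Counted by gene in the same way, they occur in 4 of the 8 members, Nfe2l2, Gclm, Srxn1 and Txnrd1, the last in 1 of its 3 starts, and in 14 of 42 other pathway genes. A match is only a description of the window. The 250 bases before the start follow for Gclm, which holds a match, in capitals as read on the plus strand, and for the genes that rose most often with NR, Cbr1, Nqo1 and Ephx1, which hold none in this window. They lie at chr3:122245307-122245556 (plus strand), chr16:93607587-93607836 (plus strand), chr8:107403206-107403455 (minus strand) and chr1:181017570-181017819 (minus strand). Those of Cbr1 and Ephx1 lie within the GENCODE spans of their genes, and the bases before the outermost starts of these spans were not searched.
Gclm: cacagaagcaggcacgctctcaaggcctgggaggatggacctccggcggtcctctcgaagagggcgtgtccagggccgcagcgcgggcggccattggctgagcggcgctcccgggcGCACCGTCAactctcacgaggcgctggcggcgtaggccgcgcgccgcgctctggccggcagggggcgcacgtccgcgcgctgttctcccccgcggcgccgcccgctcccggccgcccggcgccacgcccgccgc
Cbr1: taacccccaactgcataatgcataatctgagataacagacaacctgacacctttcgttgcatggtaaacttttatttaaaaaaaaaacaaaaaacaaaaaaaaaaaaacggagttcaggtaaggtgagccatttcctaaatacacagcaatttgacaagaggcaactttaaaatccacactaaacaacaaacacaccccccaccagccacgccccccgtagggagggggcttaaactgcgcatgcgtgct
Nqo1: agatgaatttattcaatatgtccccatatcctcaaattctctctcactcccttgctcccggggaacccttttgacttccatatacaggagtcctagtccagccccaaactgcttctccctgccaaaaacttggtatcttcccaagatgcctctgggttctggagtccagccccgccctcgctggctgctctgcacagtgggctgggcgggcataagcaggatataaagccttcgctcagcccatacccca
Ephx1: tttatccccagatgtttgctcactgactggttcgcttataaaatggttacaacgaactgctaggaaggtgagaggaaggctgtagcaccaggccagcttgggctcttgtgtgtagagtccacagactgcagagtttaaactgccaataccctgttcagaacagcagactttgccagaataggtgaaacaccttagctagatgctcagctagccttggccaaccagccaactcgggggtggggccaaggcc

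In mm10, the genes lie on chromosomes 1 (Ephx1), 2 (Nfe2l2 and Srxn1), 3 (Slc7a11 and Gclm), 8 (Hmox1 and Nqo1), 9 (Gclc), 10 (Txnrd1) and 16 (Cbr1). Cbr1 spans 93605853 to 93610505 of its chromosome, Nqo1 107388225 to 107403206, and Ephx1 180976210 to 181020904. Exons of Gclm share 296 bases with Gm17494, on the other strand and not in the count table, so that reads of that gene may be counted for Gclm. They share 244 bases with Gm6061, which was at most 1.26 CPM, and exons of Ephx1 share 72 bases with Gm36961, at most 0.226 CPM.

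Markers of cell types moved strongly with disease, when 26.8% of all genes rose and 24% fell in males, and 23.9% and 21.8% in females. In males, 9 of 10 proximal tubule markers fell and 1 rose, and all 6 injured tubule, 10 macrophage and 7 myofibroblast markers rose. Summed over the proximal tubule list, male controls on vehicle had 16119, 17502, 16114 and 15732 CPM and male Alport mice 7745, 8205, 5787 and 9292 CPM. The macrophage list, led by Lyz2, summed to 84.9, 80.8, 103 and 100.1 CPM in male controls and 715, 704, 785 and 583 CPM in male Alport mice. In females, 8 proximal tubule markers fell and 1 rose, and all 6 injured tubule, 10 macrophage and 7 myofibroblast markers rose. Female controls on vehicle had 14212, 12926, 12707 and 13319 CPM of the proximal tubule list and female Alport mice 5675, 8650.3, 7113 and 7108. Their macrophage sums were 109, 97.5, 176 and 117 CPM and 835, 464, 668 and 753 CPM. In neither sex did these sums overlap between Alport and control mice, and their part in the falls of Gclm, Cbr1, Nqo1 and Txnrd1 and the rises of Hmox1 and Ephx1 was not tested.

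The injured tubule list summed to 602, 531, 663 and 523 CPM in male controls and 6126, 7439, 6107 and 6144 CPM in male Alport mice on vehicle, and to 1957, 1405, 1743 and 1561 and 11729, 7362, 10235 and 7815 CPM in females. Most of it was Spp1, at 94.4% of the sum. The myofibroblast list, led by Col1a2, summed to 129, 123, 130.4 and 137 CPM in male controls and 1048, 1228, 1501 and 913 CPM in male Alport mice, and to 174, 156, 227 and 207 and 1228, 748, 1218 and 869 CPM in females. Of 8 markers of the loop of Henle, distal tubule and collecting duct, led by Umod, 5 fell in each sex. Lymphocyte markers rose for 6 of 6 tested in males and 4 of 6 in females, with Cd3e, Cd79a and Ms4a1 below a mean of 1 CPM. Endothelial markers, led by Kdr, rose for 6 of 7 in males and 3 of 7 in females, and podocyte markers, led by Podxl, for 6 of 6 and 5 of 6. Of 7 adipocyte markers 6 had a mean below 1 CPM, and Fabp4 rose in both sexes.

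With NR in male controls, markers of other cells also passed the threshold. Endothelial markers rose for 6 of 7, and injured tubule, macrophage and myofibroblast markers for 3 of 6, 3 of 10 and 3 of 7, while 1 of 10 proximal tubule and 1 of 8 distal markers fell, beside 2.97% of all genes that rose and 1.48% that fell. The injured tubule list summed to 1802, 1251, 1580.4 and 723 CPM in the NR mice, and the endothelial list to 464, 393, 479.5 and 437 CPM, beside 296, 319, 310.0 and 289 CPM on vehicle. All 4 NR mice lay above the 4 vehicle mice in both lists, and NR mice 1 and 3 were the highest for injured tubule markers. The proximal tubule list had 10159, 14597, 11107 and 14295 CPM on NR, below the vehicle mice in all 4, and the myofibroblast list 210.2, 221, 203 and 149 CPM, above them in all 4. The macrophage list had 118, 198, 111 and 91.9 CPM. Of podocyte, lymphocyte and adipocyte markers edgeR called 0 of 6, 0 of 4 and 0 of 1 tested, with 1, 0 and 1 at an unadjusted p under 0.05, DESeq2 called 0, 0 and 1, and limma-voom 0. Of all genes, 3378 of 14696 stood at that p, DESeq2 called 1626 of 14728 and limma-voom 566 of 14696. Of the 9 lists, only 2 endothelial markers passed without NR mice 1 and 3, both higher, beside 0.566% of all genes that rose and 0.27% that fell. With the 2 NR mice left, the median log2 differences were still 1.79 for injured tubule, 0.99 for macrophage, 0.65 for myofibroblast and 0.48 for endothelial markers. The part of these cells in the NR response was not tested.

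In female controls, where Cbr1 and Ephx1 rose, 1 of 10 proximal tubule markers fell, and of 8 distal markers 1 rose and 1 fell, beside 4% of all genes that rose and 2.39% that fell. The injured tubule list had 2242, 1899, 1311 and 1510.4 CPM on NR, overlapping the vehicle mice. In Alport mice edgeR called 0 markers of any of the 9 lists with NR. At an unadjusted p under 0.05 stood 2590 of 15712 genes in females. Among them were 5 of 6 injured tubule, 3 of 10 macrophage and 2 lymphocyte markers, all lower. There, 3 of 7 endothelial, 1 podocyte, 1 adipocyte and 1 distal marker stood below the same p, all higher. In males, with 777 of 15500 genes below that p, these were 1 of 7 endothelial markers, higher, and 1 lymphocyte and 1 podocyte marker, lower. They held 0 of the injured tubule and macrophage markers. DESeq2 called 2 injured tubule, 1 macrophage, 1 lymphocyte, 2 endothelial and 1 distal marker in females, beside 695 of 15767 genes. It called 0 markers in males, beside 68 of 18306 genes. With limma-voom 0 markers passed, beside 69 of 15712 genes in females and 0 of 15500 in males. Females on NR had 6419.5, 6909.6, 7888 and 6709 CPM of the proximal tubule list, within the vehicle range. Their macrophage list had 674, 496, 251 and 116 CPM and their injured tubule list 6719, 8128, 4733 and 2866 CPM. Mouse 4, with the highest Nqo1, Cbr1 and Hmox1, was the lowest of its group in both. Males on NR had 4833, 11115, 3110.1 and 11304 CPM of the proximal tubule list and 1139, 345, 235 and 423 CPM of the macrophage list. Mouse 3, highest for 9 of the 10 genes, Hmox1 among them, was lowest in both. The part of these cells in its levels was not tested. Mouse 1, lowest for 5 of the 10, had the highest macrophage sum, and the injured tubule list had 10494, 3687, 4011 and 3017 CPM in mice 1 to 4.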

How the data were processed

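Poly(A) RNA of kidney cortex from 32 mice was measured in 1 library each. The counts deposited per gene symbol were made with BioJupies by the authors; the build is mm10 in the submitters' notes, and the aligner version, the annotation and the strand are not given in the sources used here, so reads of overlapping genes may be shared. A second deposited table, of log values of the same counts, was not used.

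The 10 members were found by symbol. Members and gene lists were chosen with earlier results of these data known. Each comparison of 4 against 4 mice was fitted over all genes by the quasi-likelihood F test of edgeR 4.0.16 (R 4.3.3; filterByExpr with a minimum count of 10; TMM), with Benjamini-Hochberg adjustment over all genes tested and a threshold of 0.05; interactions used the 16 mice concerned, and that of sex and genotype also a 2-fold limit. All 10 members passed the filter in every comparison. Standard errors are the log2 fold change over the root of F.

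Alternatives were DESeq2 1.42.0, limma-voom (limma 3.58.1), RLE size factors, no filter, a filter on 1 CPM in 4 mice or more, 1 fit of all 32 mice, a replicate block, no fold limit, and leaving out each mouse. One more, without the male controls on NR whose Col4a3 lay in the Alport range, was chosen after seeing the data. One cell type marker is not reported here. Lengths are exon bases of GENCODE M21. Named pathway genes are the regulators and up to 4 of each other list that passed with the largest change with NR in controls or female Alport mice. Levels and sums used Python 3.11.15 with pandas 2.3.3 and numpy 2.4.6.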

Additional observations from a re-analysis of the deposited data

Results flagged for a closer look

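In 88 groups of 4 mice (the 10 genes and the library totals), 14 had a highest or lowest mouse whose gap to the next mouse took up most of the group's range, past Dixon's critical value. For independent groups of normally distributed values, chance gives this in about 1 in 20. The 88 groups share their mice between genes, so that rate is no measure for the count of 14.

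Of these, 7 were mouse 3 of the male Alport mice on NR, highest for Gclc at 769.6 CPM, Slc7a11 at 30.4, Txnrd1 at 641, Srxn1 at 575, Nqo1 at 298, Cbr1 at 563 and Hmox1 at 313. Mouse 4 of the female Alport mice on NR was apart for Txnrd1, at 556 CPM, and had the highest total of its group, 25963664 counts. Mouse 2 of the female controls on NR was lowest for Nqo1, at 63.3 CPM, and mouse 2 of the male controls on NR for Nfe2l2, at 89.3 CPM. Mouse 4 of the male Alport mice on vehicle was highest for Gclm, at 272 CPM. Lowest of their groups on vehicle were male control 2 for Srxn1, at 74.4 CPM, and female control 4 for Cbr1, at 254 CPM.

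The response of Cbr1 to NR in controls differed between the sexes by −2.04 on the log2 scale, female minus male, in the interaction test.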

How the results depend on the processing

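Each count of the 10 genes past the threshold, and each of their 120 log2 differences, was recomputed under the alternatives, and no difference past the threshold changed sign. DESeq2 moved the count with NR from 0 to 1 in male Alport mice, as all calls went from 0 to 68 genes. It moved that in male controls from 3 to 6, as all calls went from 654 to 1626 genes. In female Alport mice the count went from 3 to 6, as all calls went from 72 to 695. For the sex-genotype interaction it went from 0 to 1, as all calls went from 41 to 115. With no filter the count was 1 with NR in female Alport mice, 1 in female controls and 0 for the sex-NR interaction in controls. All calls were then 81 of 22878, 942 of 22188 and 83 of 23136 genes. With 1 fit of all 32 mice the count was 1 with NR in male Alport mice, 2 between Alport and control females, 0 with NR in female controls and 0 for the sex-NR interaction in controls. In the same order, that fit called 77, 5977, 20 and 6 of 16469 genes. The main fit of female controls called 598 genes higher and 358 lower with NR, of 14951. With the replicate block the count was 1 with NR in male controls, in female Alport mice and in female controls. All calls were then 413 of 14696, 54 of 15712 and 406 of 14951 genes. The labels do not pair mice by number. Correlations of same-numbered mice were −0.166 to 0.265 in 28 pairs. Mice of different numbers were not set beside them, so these values cannot decide whether numbers pair mice. Without the male controls with low Col4a3, chosen after seeing the data, the count was 1 with NR in male controls and 0 for the sex-NR interaction in controls. All calls were then 127 of 15188 and 0 of 15921 genes. With limma-voom, RLE size factors or the filter on 1 CPM in 4 mice or more, each count was within 1.5 times. The cause of these changes was not tested, except that fewer mice enter the last fit.

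With each mouse left out, counts ran from 2 to 3 between Alport and control males, 3 to 4 in females, 0 to 1 with NR in male Alport mice, 1 to 6 in male controls, 0 to 6 in female Alport mice, 0 to 3 in female controls, 2 to 3 between the sexes, and 0 to 1 for the sex-genotype interaction and the sex-NR interaction in controls. They were 0 throughout for the other 3 interactions. Among the single differences of all such refits, 56 lost a call and 19 gained one. No scaling moved the median of all genes by more than 0.1. Slc7a11, at 33 counts in its lowest library, is the gene most limited by depth.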
